A study of Glycine max with 9 samples.

Results

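The genes described here encode enzymes of the phenylpropanoid route to flavonols and anthocyanins, followed in soybean (Glycine max) leaves during chilling. A list of 10 identifiers set the members, and 9 of them were among the 49777 genes of the deposited table. These were 4 genes listed as phenylalanine ammonia-lyases (PAL), 1 each as flavanone 3-hydroxylase (F3H), flavonoid 3'-hydroxylase (F3'H) and flavonol synthase (FLS), and 2 as anthocyanidin synthases (ANS). Glyma14g07940, listed as a dihydroflavonol 4-reductase, was not analysed here. The deposited table holds identifiers without names, so each enzyme name is the one under which the identifier was listed. The leaves were the unifoliates of 2-week-old Williams 82 seedlings, grown at 20 °C under 18 h of light and 6 h of darkness and then held at 4 °C for 0, 1 or 24 h. Each time had 3 replicate libraries, and each library came from at least 6 plants. The cold began 4 h after the lights came on and the light cycle was kept, so the 24 h leaves were taken at the same hour of the cycle as the 0 h leaves and the 1 h leaves an hour later. Unchilled leaves of the later hour or of the later day were not analysed here, so cold cannot be told apart from the hour at 1 h or from a further day of age at 24 h.

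PAL removes the amino group of phenylalanine to give cinnamate and so opens the route to lignin precursors, isoflavonoids, flavonols and anthocyanins. F3H turns flavanones into dihydroflavonols, and F3'H adds a hydroxyl group to the B ring of the flavonoid. At the dihydroflavonols the route branches: FLS makes flavonols, whereas dihydroflavonol 4-reductase followed by ANS makes the coloured anthocyanidins. In many plants, leaves kept cold in the light come to hold more anthocyanin. Soybean carries many of its genes as close copies left by past duplications of its genome. Reads shared between such copies may have been counted in ways not given in the sources used here, so the value of a single PAL or ANS copy is uncertain to that extent. The identifiers place the 4 PAL genes on chromosomes 19, 3, 10 and 13 and the 2 ANS genes on chromosomes 1 and 11. F3H, F3'H and FLS lie on chromosomes 2, 6 and 13 by the same numbering.

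Values are normalized read counts, rounded by the authors, and are not divided by gene length. They therefore show how a gene changed between libraries and not which gene was the more abundant. Library totals were 71.0 to 81.9 M normalized counts, and the spacing of the low values put the depth at an estimated 18.0 to 67.7 M reads. Libraries of replicate number 3 stood apart from the others in most of the genes described here, as given below, and libraries of the same number deviated together. Every change is an average of differences within replicate numbers, because the list of members asked for pairing. Changes are on the scale of log2(normalized count + 1) and were tested with limma across 38985 genes. All 9 libraries were fitted together, so the 3 times share a single estimate of spread for each gene. What a replicate number shares, and whether the libraries came from separate cultures, is not stated in the labels. The p-values measure how much the changes varied between replicate numbers, with limma's moderation across genes, and this spread may be technical. Differences in level between replicate numbers are left out of it. The labelled tissue was not checked against leaf markers, because no identifier has a name in the sources used here.

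After 1 h at 4 °C, 2 of the 4 PAL genes had fallen. Glyma10g06600 had normalized counts of 13230, 13944 and 28331 before the cold (replicates 1 to 3), 8002, 8943 and 21756 after 1 h, and 10045, 9024 and 25536 after 24 h. It was lowest at 1 h in each replicate number, but the groups overlapped because replicate 3 was high throughout. The fall at 1 h was 0.58 ± 0.09 on the log2 scale (n = 3 pairs, SE from all 9 libraries, limma adjusted p = 0.0097), or 33.2%. At 24 h it was still below 0 h, with a log2 change of -0.39 ± 0.09 (limma adjusted p = 0.0352). In bulk leaf, fewer cells that hold a transcript and less of it per cell cannot be told apart. These calls were lost without the pairing by replicate number (adjusted p = 1 at both times) and with limma's plain moderation, without trend or robust weights (adjusted p = 0.144 at 1 h and 0.202 at 24 h), and the 24 h call in a fit of the 0 h and 24 h libraries alone (0.079). The 1 h call was also lost without replicate 1 or 2 of 0 h (adjusted p = 0.0622 and 0.0528) or replicate 1 of 1 h (0.0736), and the 24 h call without any of 6 libraries: replicates 1 and 2 of 0 h (0.163 and 0.17), 2 and 3 of 1 h (0.0507 and 0.0607) or 1 and 2 of 24 h (0.131 and 0.19).

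Glyma13g20800 was the other PAL gene that fell at 1 h. Its normalized counts were 6283, 7493 and 37656 before the cold (replicates 1 to 3), 4636, 5882 and 30977 after 1 h, and 5297, 5452 and 33939 after 24 h. Every replicate number was lower at both cold times than at 0 h, although replicate 3 lay several times above the others and the groups overlapped. The log2 change was -0.36 ± 0.08 at 1 h (limma adjusted p = 0.0294), a fall of 21.9%. At 24 h the change of -0.28 ± 0.08 missed the threshold (limma adjusted p = 0.0603), with a 95% interval from -0.45 to -0.12, and it passed with equal library totals (0.0469), with quantile normalization (0.0349) and without replicate 3 of 24 h (0.0487). The 1 h call was lost without the pairing (adjusted p = 1), with plain moderation (0.178) and with equal library totals (0.0708). It was also lost without replicate 1 or 2 of 0 h (0.127 and 0.136), replicate 1 or 3 of 1 h (0.169 and 0.113) or replicate 1 of 24 h (0.0607).

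The other 2 PAL genes passed the test at neither time. Glyma19g36620 had normalized counts of 453, 692 and 6762 before the cold (replicates 1 to 3), 312, 858 and 6406 after 1 h, and 376, 508 and 8081 after 24 h. Its direction differed between replicate numbers at both times: at 1 h replicate 2 was higher than at 0 h, and at 24 h replicate 3 was. The log2 change was -0.10 ± 0.22 at 1 h (limma adjusted p = 0.85, 95% interval -0.63 to 0.43) and -0.15 ± 0.22 at 24 h (limma adjusted p = 0.772, 95% interval -0.68 to 0.38). Glyma03g33880 showed the same mixture, with 527, 600 and 4358 before the cold, 515, 851 and 3915 after 1 h, and 490, 441 and 4970 after 24 h. Its log2 change was 0.11 ± 0.21 at 1 h (limma adjusted p = 0.837, 95% interval -0.40 to 0.61) and -0.12 ± 0.21 at 24 h (limma adjusted p = 0.82, 95% interval -0.63 to 0.39). All 4 intervals hold the change of Glyma13g20800 at the same time, and all but that of Glyma03g33880 at 1 h hold the change of Glyma10g06600. Whether the copies differed in their response was not tested. Leaving out replicate 2 of 1 h moved the 1 h changes to -0.38 ± 0.15 for Glyma19g36620 and -0.17 ± 0.14 for Glyma03g33880. Leaving out replicate 2 of 24 h lowered the SEs as much, to 0.15 and 0.13. Without replicate 1 of 1 h the 1 h changes of these genes were 0.09 ± 0.23 and 0.18 ± 0.28. Without replicate 3 of 1 h they were -0.01 ± 0.26 and 0.31 ± 0.20.

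**Figure D1:**
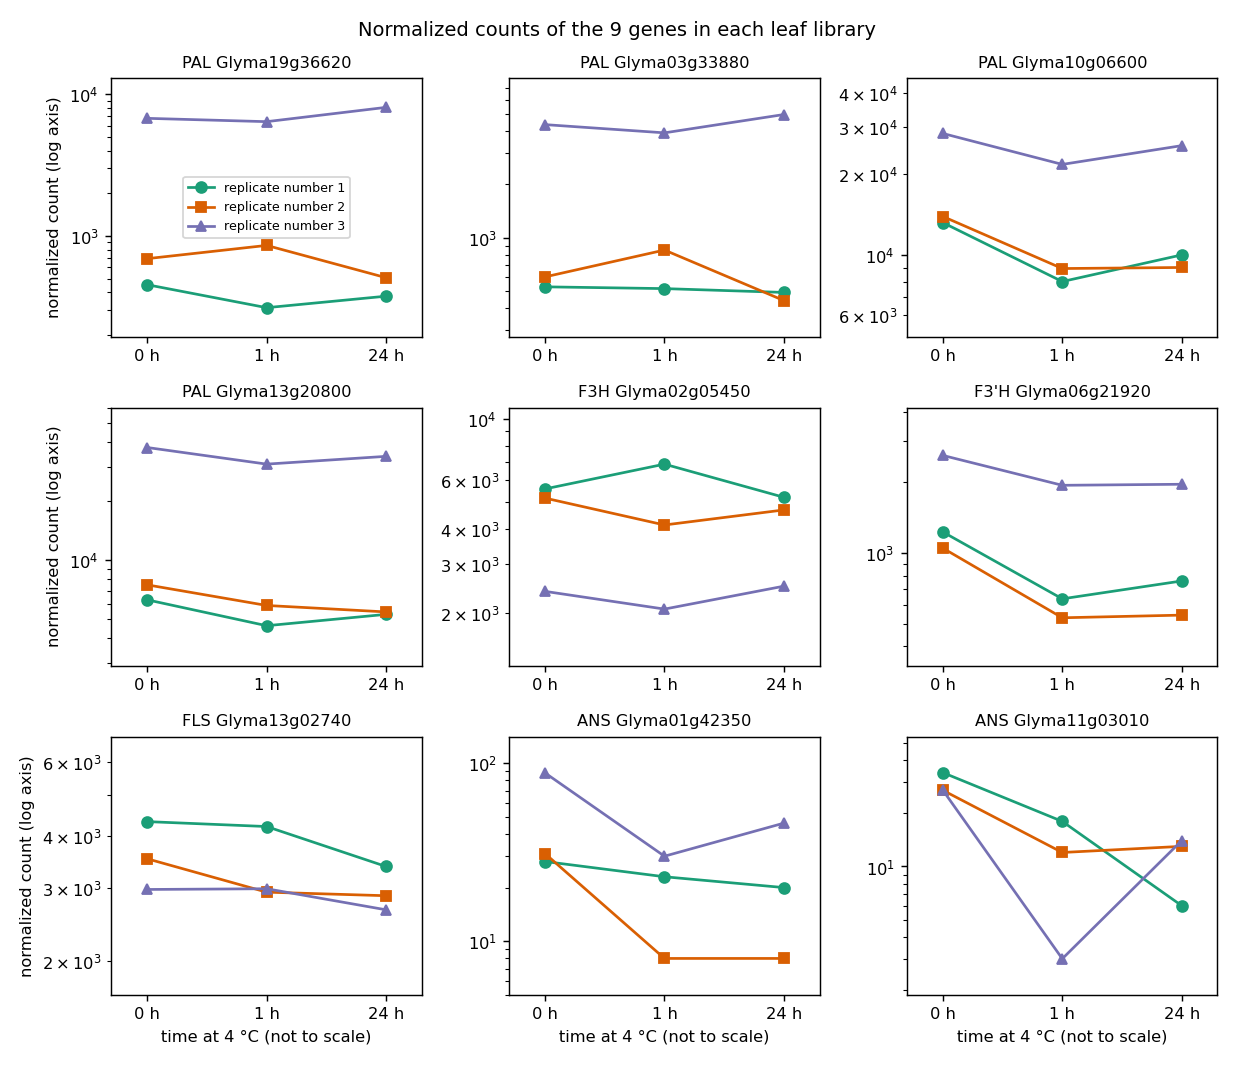
Normalized counts of the 9 genes (vertical axis, logarithmic, with its own range in each panel) after 0, 1 and 24 h at 4 °C (horizontal axis, not to scale), with 1 line and symbol per replicate number and no averaging. Glyma10g06600, Glyma13g20800 and Glyma06g21920 are lower at 1 h than at 0 h on all 3 lines, and replicate number 3 lies above the others in all 4 PAL panels.

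The PAL counts summed over the 4 genes were lower at both cold times in each replicate number. The sum went from 20493 at 0 h to 13465 at 1 h and 16208 at 24 h in replicate 1, from 22729 to 16534 and 15425 in replicate 2, and from 77107 to 63054 and 72526 in replicate 3. The drop at 1 h was thus 34.3%, 27.3% and 18.2% in replicates 1, 2 and 3, and at 24 h 20.9%, 32.1% and 5.94%. The sum was set mostly by Glyma10g06600 and Glyma13g20800, and it was not tested.

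Among the enzymes between PAL and the branch point, F3'H fell and F3H did not pass the test. Glyma06g21920, the F3'H gene, had normalized counts of 1227, 1047 and 2600 before the cold (replicates 1 to 3), 637, 529 and 1940 after 1 h, and 759, 543 and 1960 after 24 h. At 1 h replicates 1 and 2 changed more than replicate 3, with log2 changes of -0.94, -0.98 and -0.42. The groups overlapped, since replicate 3 in the cold stayed above replicates 1 and 2 at 0 h. The average log2 change was -0.78 ± 0.11 at 1 h (limma adjusted p = 0.0085), a fall of 41.9%. At 24 h it was -0.68 ± 0.11 (limma adjusted p = 0.0104), a fall of 37.7%. The calls were lost without the pairing (adjusted p = 1 at both times), with plain moderation (0.139 and 0.138 at 1 and 24 h) and without replicate 1 of 0 h (0.0525 and 0.0647). The 1 h call was also lost without replicate 1 of 1 h (0.0621), and the 24 h call without replicate 2 of 0 h (0.05005) or replicates 1 or 2 of 24 h (0.0614 and 0.0817).

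Glyma02g05450, the F3H gene, had normalized counts of 5582, 5171 and 2384 before the cold (replicates 1 to 3), 6856, 4137 and 2058 after 1 h, and 5207, 4687 and 2489 after 24 h. At 1 h replicate 1 was higher than at 0 h and the others lower, and at 24 h only replicate 3 was higher. The log2 change was -0.08 ± 0.13 at 1 h (limma adjusted p = 0.78, 95% interval -0.36 to 0.20) and -0.06 ± 0.13 at 24 h (limma adjusted p = 0.848, 95% interval -0.34 to 0.22). In fold terms the intervals at 1 h ran from 0.778 to 1.15 for F3H and from 0.487 to 0.693 for F3'H. These intervals do not overlap, but the difference between the genes was not itself tested.

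FLS, the flavonol branch, did not pass the test at either time. Glyma13g02740 had normalized counts of 4325, 3521 and 2972 before the cold (replicates 1 to 3), 4209, 2928 and 2984 after 1 h, and 3375, 2871 and 2656 after 24 h. At 1 h only replicate 2 moved by more than a few percent, and at 24 h every replicate number was below its 0 h value. The log2 change was -0.10 ± 0.08 at 1 h (limma adjusted p = 0.513) and -0.27 ± 0.08 at 24 h (limma adjusted p = 0.0724, 95% interval -0.44 to -0.10). With equal library totals the 24 h change of -0.31 passed the test (limma adjusted p = 0.0389).

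The 2 ANS genes of the anthocyanin branch had low counts in these leaves, and neither passed the test. Glyma01g42350 had normalized counts of 28, 31 and 88 before the cold (replicates 1 to 3), 23, 8 and 30 after 1 h, and 20, 8 and 46 after 24 h. Glyma11g03010 had 34, 27 and 27 before the cold, 18, 12 and 3 after 1 h, and 6, 13 and 14 after 24 h. Both genes were lower than at 0 h in every replicate number at both times, and for Glyma11g03010 the highest cold value lay below the lowest 0 h value. Such separation towards lower values was found in 2.19% of all genes at 1 h and 2.45% at 24 h. Glyma01g42350 changed by -1.21 ± 0.42 at 1 h (limma adjusted p = 0.134, 95% interval -2.13 to -0.29) and by -1.07 ± 0.42 at 24 h (limma adjusted p = 0.18). Glyma11g03010 changed by -1.60 ± 0.62 (limma adjusted p = 0.179, 95% interval -2.96 to -0.24) and by -1.41 ± 0.62 (limma adjusted p = 0.234). Its 1 h change was -0.87 without replicate 3 of 1 h, the library with 3 normalized counts, and its 24 h change was -0.77 without replicate 1 of 24 h. In estimated reads, Glyma01g42350 rested on 3.0 to 56.7 reads per library and Glyma11g03010 on 2.3 to 17.4. Neither gene showed a rise in any replicate number over the 0 h leaves.

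Across the list, 3 of the 9 genes fell and none rose after 1 h in the cold, and after 24 h 2 fell and none rose. Of all 38985 genes tested, 4.47% were called at 1 h, 2.07% as lower and 2.4% as higher. At 24 h 5.11% were called, 2.1% as lower and 3.01% as higher. With equal library totals in place of the deposited scaling, 434 genes were lower and 1448 higher at 1 h, compared with 808 and 934, and 1147 lower and 921 higher at 24 h, compared with 820 and 1173. Genes with high counts were called more often: among the 11790 genes that averaged 1000 normalized counts or more, 4.98% were lower at 1 h and 4.46% at 24 h. The members with such counts numbered 7 and included every member that was called. The median log2 change was -0.36 over the 9 members at 1 h and -0.28 at 24 h, and -0.02 at each time over all genes. By class at 1 h, the median was -0.23 in the 4 PAL genes, -0.10 in F3H, F3'H and FLS, and -1.40 in the 2 ANS genes. At 24 h the medians were -0.22, -0.27 and -1.24. Both comparisons use the same 0 h libraries, so a gene low at both times was not measured independently. In all 3 replicate numbers, 5 members were lower at 1 h and 6 at 24 h, compared with 21.6% and 21.8% of all genes. Without the pairing, 0 members and 0 of all genes were called at either time, with 539 genes at an unadjusted p under 0.05 at 1 h and 549 at 24 h.

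**Figure D2:**
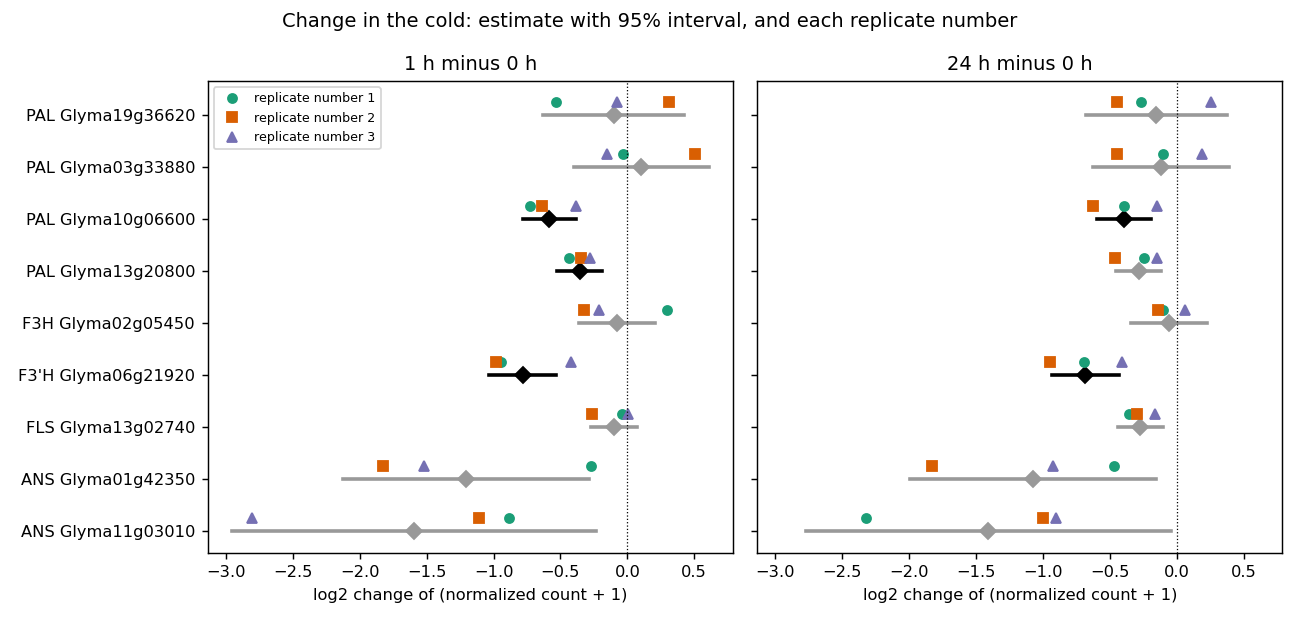
Change in log2(normalized count + 1) from 0 h (horizontal axis) for each gene at 1 h (left) and 24 h (right). Diamonds and bars give limma's estimate and its 95% interval, black where the adjusted p was under 0.05 and grey otherwise, and the symbols above them give the change within each replicate number. The black estimates run from -0.78 to -0.36 in the left panel and are -0.68 and -0.39 in the right panel, while the 2 ANS genes have the lowest estimates and the widest bars.

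No member passed the adjusted threshold between 24 h and 1 h in the cold. Their log2 differences ran from -0.22 for Glyma03g33880 to 0.19 for Glyma10g06600 and Glyma11g03010, with limma adjusted p-values of 0.874 to 0.993. At an unadjusted p under 0.05 there was 1 member, the FLS gene Glyma13g02740 (-0.17 ± 0.08, 95% interval -0.34 to -0.0021, lower at 24 h in 3 of 3 replicate numbers), beside 2211 of all genes, 5.67%. No gene of the table passed the adjusted threshold in this comparison with the pairing (smallest adjusted p = 0.552) or without it. Glyma10g06600 was 0.19 ± 0.09 higher at 24 h than at 1 h, in 3 of 3 replicate numbers, with a limma adjusted p of 0.877. In all 3 replicate numbers, 2 members were higher at 24 h than at 1 h (Glyma10g06600 and F3'H) and 1 was lower (FLS). Of all genes, 14.2% were higher and 12.9% lower in this way. For F3'H the 95% interval of the difference was -0.15 to 0.36, and for Glyma13g20800 it was -0.10 to 0.24. For the ANS genes the intervals were -0.78 to 1.05 and -1.17 to 1.55, which reach past 2-fold upwards in both genes and downwards in Glyma11g03010.

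Differences between replicate numbers exceeded the changes in the cold for most members. Averaged over the 3 times on the log2 scale, Glyma19g36620 was 14.0-fold higher in replicate 3 than in the mean of replicates 1 and 2, Glyma03g33880 7.87-fold, Glyma13g20800 5.90-fold and Glyma10g06600 2.43-fold. F3'H was 2.86-fold and the ANS gene Glyma01g42350 2.76-fold higher in replicate 3. F3H went the other way and was 2.26-fold lower. FLS differed least, with a log2 difference of -0.29. At each time the sign was the same in these 8 genes, whereas in Glyma11g03010 it was not. Of the 28537 genes that averaged 100 normalized counts or more, 23.7% were more than 2-fold higher in replicate 3 and 18.6% more than 2-fold lower. What sets replicate 3 apart is not given in the sources used here. Without the 3 libraries of replicate 3, the same 3 members were called at 1 h (Glyma06g21920, Glyma10g06600 and Glyma13g20800), and at 24 h these 3 were called, beside 1288 and 1802 of all genes. Without the libraries of replicate number 1, 0 members were called at either time, beside 7 of all genes at 1 h and 42 at 24 h. Without those of number 2, 0 members were called, beside 242 and 93 of all genes.

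**Figure D3:**
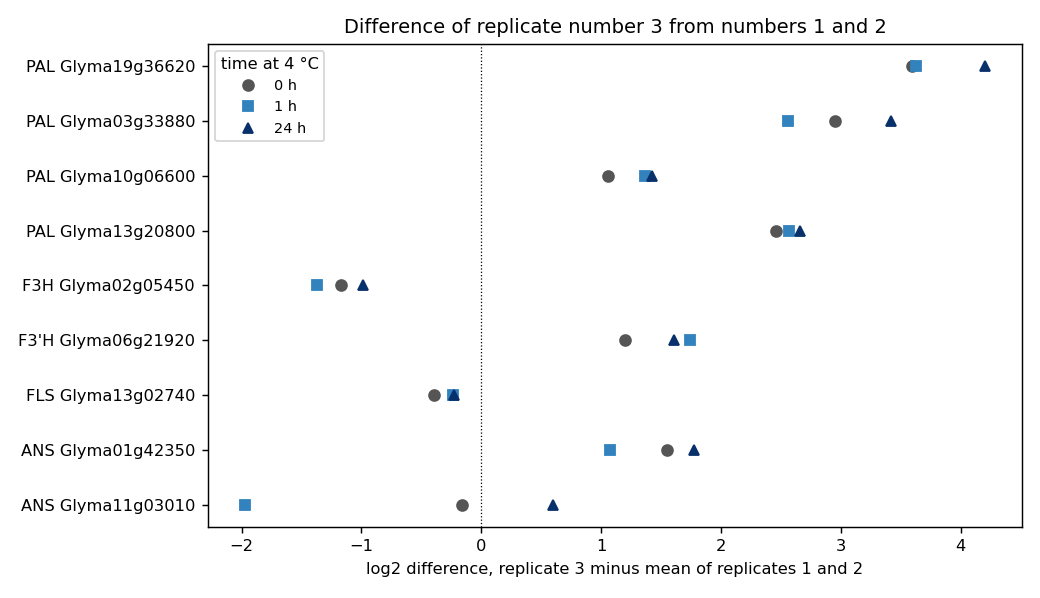
Log2 difference of replicate number 3 from the mean of replicate numbers 1 and 2 (horizontal axis) for each gene, with 1 symbol per time at 4 °C. The 4 PAL genes, F3'H and Glyma01g42350 lie above 0 at all 3 times and F3H and FLS below 0, and only Glyma11g03010 changes sign.

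The make-up of the PAL pool followed the replicate number as well. Glyma10g06600 gave 54.1% to 64.6% of the summed PAL count in the 6 libraries of replicates 1 and 2 and 34.5% to 36.7% in those of replicate 3. The share of Glyma13g20800 was 30.7% to 35.6% and 46.8% to 49.1%, and that of Glyma19g36620 was 2.2% to 5.2% and 8.8% to 11.1%. The shares in the 2 sets of libraries did not overlap for any of the 4 genes. Between times the share of Glyma10g06600 went from 64.6% at 0 h to 59.4% at 1 h and 62.0% at 24 h in replicate 1, from 61.3% to 54.1% and 58.5% in replicate 2, and from 36.7% to 34.5% and 35.2% in replicate 3. It was lower at 1 h than at 0 h in each of the 3 replicate numbers. In replicate 2 at 1 h the share of Glyma03g33880 reached 5.15%, from 2.64% at 0 h, close to its 5.65% to 6.85% in replicate 3. Shares are of counts not divided by length, so only their movement between libraries can be read.

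**Figure D4:**
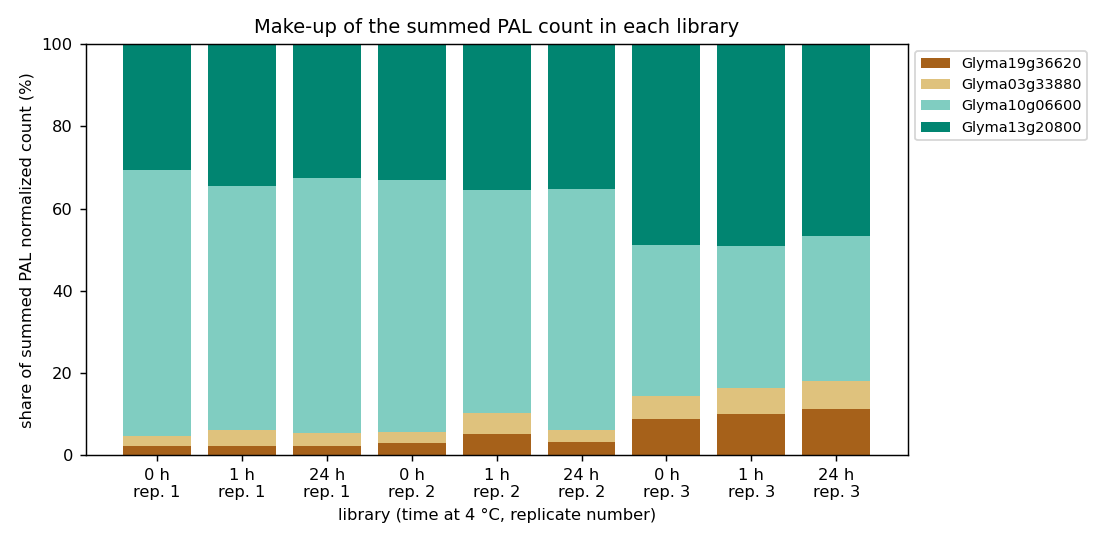
Share of the summed normalized count of the 4 PAL genes (vertical axis, in percent) that each gene made up in each library (horizontal axis, grouped by replicate number). Glyma10g06600 makes up 54.1% to 64.6% in replicates 1 and 2 and 34.5% to 36.7% in replicate 3, at each time at 4 °C.

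With each gene's mean per replicate number removed, Glyma10g06600, Glyma13g20800 and F3'H had nearly the same profile over the 9 libraries. They are also the 3 members called lower at 1 h in the paired fit, so their likeness adds no support to those calls. Pearson's r was 0.98 between the 2 PAL genes, and 0.97 and 0.96 between each of them and Glyma06g21920. Among 28536 other genes that averaged 100 normalized counts or more, Glyma10g06600 ranked at position 7 in likeness to Glyma13g20800, and Glyma13g20800 at 13 in likeness to Glyma10g06600. F3'H ranked at 45 and 75 in likeness to Glyma10g06600 and Glyma13g20800, which ranked at 77 and 136 in likeness to F3'H. Glyma19g36620 and Glyma03g33880 formed a second pair, with r = 0.84 between them and 0.06 to 0.53 with the other PAL genes. F3H followed neither, with values from -0.32 to 0.15 against the PAL and F3'H genes. The values describe 9 libraries that share 3 group means and 3 replicate numbers, and a high value follows in part from a shared high level at 0 h. Before the replicate means were removed, r between Glyma19g36620 and Glyma03g33880 was 0.99 and that between Glyma19g36620 and F3H was -0.97, values that the replicate numbers dominate.

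**Figure D5:**
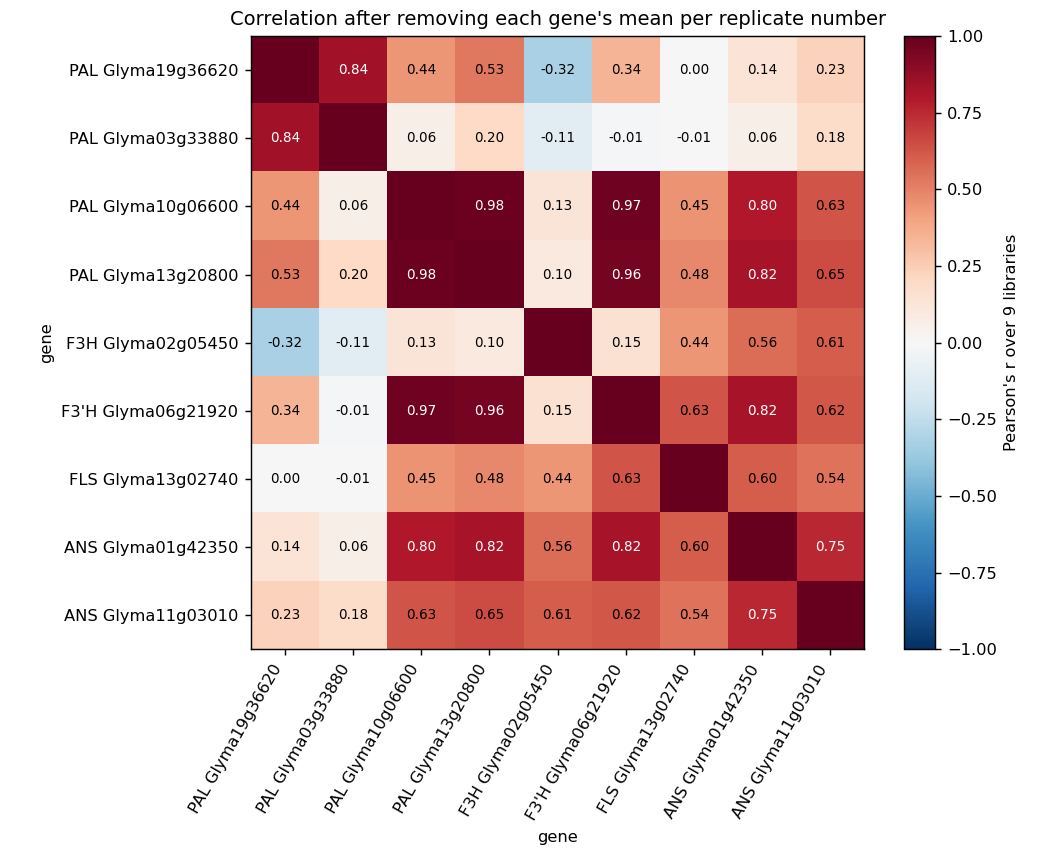
Pearson's r (colour and printed value) between each pair of the 9 genes over 9 libraries, after each gene's mean within a replicate number was removed. Glyma10g06600, Glyma13g20800 and Glyma06g21920 correlate at 0.96 to 0.98 with each other, and Glyma19g36620 and Glyma03g33880 at 0.84.

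The genes outside the list whose profile was most like the average of the members were Glyma03g36650 and Glyma01g39850, with r = 0.99 and 0.98 over the 9 libraries. Neither identifier has a name in the sources used here. Several members followed that average poorly. Against the mean of the other members, r was 0.20 for Glyma03g33880, 0.26 for F3H and 0.38 for Glyma19g36620, and at most 0.88 (Glyma13g20800). Glyma03g36650 had normalized counts of 848, 949 and 1497 before the cold (replicates 1 to 3), 728, 801 and 1193 after 1 h, and 691, 737 and 1361 after 24 h. It was lower in the cold in every replicate number, and its log2 change of -0.26 ± 0.09 at 1 h did not pass the test (limma adjusted p = 0.118). Glyma01g39850 had 2563, 2919 and 642 before the cold, 1933, 2042 and 476 after 1 h, and 1966, 1831 and 577 after 24 h. Unlike the PAL genes it was lowest in replicate 3, and its log2 change was -0.45 ± 0.10 at 1 h (limma adjusted p = 0.03) and -0.40 ± 0.10 at 24 h (limma adjusted p = 0.0415). The calls of Glyma01g39850 were lost without the pairing, when no gene was called at either time. They were also lost with plain moderation, when 0 genes were called as lower at either time. Both genes were picked for this likeness, so their changes add no support to those of the members.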

How the data were processed

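The deposited table holds a score for each gene in each library. The table's name and its values show that these are read counts which the authors normalized and then rounded. The submitters' processing notes list cutadapt 1.2.1 and DESeq 1.12 without saying what each did. No aligner, counter, genome build or annotation is given in the sources used here. Titles gave the groups and replicate numbers, and all 9 libraries were used. The members and lists were chosen with earlier results of these data known. Of 49777 identifiers, 0 matched a RefSeq table of 59048 genes (assembly Glycine_max v4.0), so no other pathway genes, coordinates or sequences are given.

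Genes averaging 10 or more were kept (38985), and log2(score + 1) was fitted with limma 3.58.1 in R 4.3.3, with the replicate number as a block and eBayes with trend and robust moderation. Tests were two-sided, and p-values were adjusted (Benjamini-Hochberg) across every gene kept, and the threshold was 0.05. The pseudocount understates changes of low genes. SEs are limma's moderated ones. The block was used because the list of members asked for pairing. After group means were removed, the 9 pairs of libraries of the same number correlated at 0.69 to 0.95 across genes. The numbers stand in the titles, which do not say what a shared number means. The fit without the block is given beside each call it ended. The worth of 1 read was estimated from the spacing of low scores and lay between 1.17 and 4.13. The steps so found held 82.0% to 95.9% of scores up to 40. A minority of scores fell between steps, so whole reads could not be recovered and count tests were left out. The fit and the step estimate were tested on simulated data. The data simulated for the fit had a fixed level per replicate number and the same setting of spread for all genes. That test therefore cannot show how far the calls depend on the block or the moderation. All 9 members and, of the other genes, the 2 most like their average profile (mean of at least 100 normalized counts) were named. Figures were made with matplotlib 3.10.9.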

Additional observations from a re-analysis of the deposited data

How the results depend on the processing

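Over the alternatives, 37 of 561 recomputed gene changes had the opposite sign, and none of these belonged to the 5 calls of single members. Many of the 561 could not change sign, so the share does not measure how stable the signs were. The estimate stays the same without the block, without trend or robust moderation, and with other filters. It also stays the same with the compared groups alone and without a library of the group not compared. Without the replicate block the members called went from 3 to 0 at 1 h and from 2 to 0 at 24 h, and the genes called from 1742 and 1993 to 0 and 0. With the block but without trend or robust moderation, 0 and 0 members and 0 and 1 genes were called. Fitting the 2 compared groups alone, with fewer samples, called 734 and 1185 genes, and 3 and 1 members. Equal library totals called 2 and 4 members and shifted the median difference between 24 h and 1 h over all genes to -0.10 from 0.00014. Leaving out a library or a replicate number left 0 to 3 members and 7 to 2207 genes at 1 h, 0 to 3 members and 42 to 1961 genes at 24 h, and 0 members and 0 to 3 genes between 24 h and 1 h. Fewer samples enter these fits, and the cause was not tested further. Both pseudocounts, both filters and quantile normalization kept 3 members at 1 h and 2 or 3 at 24 h. The filter at 100 removed the ANS genes.

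Each change with the opposite sign was in a comparison that the gene had not passed. Between 24 h and 1 h, equal totals gave -0.031, -0.083 and -0.00048 for Glyma13g20800, Glyma02g05450 and Glyma06g21920, and quantile normalization gave -0.015 and -0.019 for the first 2. With libraries left out, the 1 h change ran from -0.38 to 0.12 for Glyma19g36620, -0.17 to 0.31 for Glyma03g33880 and -0.28 to 0.042 for Glyma02g05450. The 24 h change ran from -0.36 to 0.10, -0.34 to 0.14 and -0.15 to 0.054 for these genes. The difference between 24 h and 1 h ran from -0.25 to 0.30, -0.51 to 0.14 and -0.11 to 0.23 for them, from -0.10 to 0.45 for Glyma01g42350 and from -0.67 to 1.01 for Glyma11g03010. The changes from 0 h of the ANS genes kept their sign, from -1.68 to -0.86 and -1.46 to -0.69 for Glyma01g42350 at 1 h and 24 h and from -2.19 to -0.87 and -1.96 to -0.77 for Glyma11g03010. These genes rest on 2.3 to 56.7 estimated reads per library, and whether depth set the width of their intervals was not tested.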
